A study of Mus musculus with 48 samples.

Results

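The hippocampal libraries of this experiment ask whether the CSF1R inhibitor PLX5622 changed a gene by the same amount in 5xFAD and in wild-type mice. For each gene the difference was computed as (5xFAD + PLX5622 minus 5xFAD) minus (PLX5622 minus Wild-type) on log2(RPKM + 0.1), where RPKM is the read number of a gene scaled to its length in kilobases and to the library's depth. A value above 0 means that a gene rose more, or fell less, with PLX5622 in 5xFAD than in wild type. The members are all 16 hippocampal libraries of the 48 in the series, 4 mice in each of 4 groups of strain C57BL/6. They were chosen by tissue, with earlier results of these data known. Wild-type mice received vehicle, and mice of the PLX5622 group were wild type with the inhibitor in chow at 1200 ppm. The 5xFAD group received vehicle and the 5xFAD + PLX5622 group the same inhibitor dose. In both genotypes the drug was started at 1.5 months and given until the mice were 7 months old. 5xFAD mice carry human transgenes, APP among them, with familial Alzheimer's disease mutations under the Thy1 promoter, which is active in neurons. Amyloid plaques form in untreated mice with these transgenes and not in wild-type mice. The study reports that with the inhibitor most plaques failed to form, except where microglia survived, and that amyloid lay in cortical vessels instead. In the subiculum, which was dissected with the hippocampus, it reports fewer plaques. The treated and untreated transgenic groups thus differed in plaques as well as in drug, and the part of plaques in the results was not tested. Brains were dissected into cortex, hippocampus and a piece that held thalamus and striatum, and RNA was taken from whole tissue.

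Microglia, the resident macrophages of the brain, need signalling through the receptor CSF1R to survive, and inhibitors of this receptor remove most of them. In an undisturbed brain they express a homeostatic set of genes that includes Csf1r itself, Cx3cr1, P2ry12, Siglech and the C1q chains. Around amyloid plaques they lower part of that set and switch on a disease-associated set, with the integrin Itgax, the lectin Clec7a, the cystatin Cst7 and many lysosomal enzymes. The hippocampus holds dense layers of excitatory neurons, which express many genes of synapses and ion channels.

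The hippocampal libraries held between 8922785 and 16021617 reads assigned to genes. Some libraries stood apart in ways that bear on the difference. Albumin (Alb), a liver transcript, was at 634 RPKM in 5xFAD + PLX5622 replicate 3, at 112 in replicate 4 and at 39.4 in PLX5622 replicate 4, and it did not exceed 12 in the other 13 libraries. Xist, which is expressed in females, was at 93.5 RPKM in Wild-type replicate 3, 104 in 5xFAD replicate 3 and 46.6 in 5xFAD + PLX5622 replicate 1, and did not exceed 0.08 in the PLX5622 group. In 5xFAD + PLX5622 replicate 3 Xist was at 5.45 RPKM beside 13.2 RPKM of the Y-linked Ddx3y. Genes of neighbouring tissue also varied, and the summed level of a list of striatal neuron genes lay between 74.7 and 120 RPKM in 10 of the 16 libraries and reached 1321 RPKM in 5xFAD replicate 3. The choroid plexus transcript Ttr reached 4126 RPKM in Wild-type replicate 3 and 3749 RPKM in PLX5622 replicate 2. The part of these features in the results was not tested, and values without the libraries with liver transcripts, or with Xist as a covariate, are given where they bear on a count.

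Of 15975 genes tested, 53 differed between the genotypes in their response to PLX5622 in hippocampus at an adjusted p under 0.05 (0.332%, limma with Benjamini-Hochberg adjustment). Of these, 49 were above 0 (0.307%) and 4 below 0 (0.025%). At an unadjusted p under 0.05 there were 2376 genes (14.9%), 1588 genes above 0 (9.94%) and 788 below 0 (4.93%). The median over all genes was 0.01, and 50.9% of them were above 0. Within 5xFAD, PLX5622 raised 50 genes (0.313%) and lowered 307 (1.92%), 2.23% in all, and within wild type it raised 29 (0.182%) and lowered 258 (1.62%), 1.8% in all. These component comparisons share no library, and 154 genes were lowered in both, which is 50.2% of the 5xFAD list and 59.7% of the wild-type list. None of the raised genes was shared. Of the 154 shared genes, 102 had the higher, less negative value in 5xFAD.

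**Figure D1:**
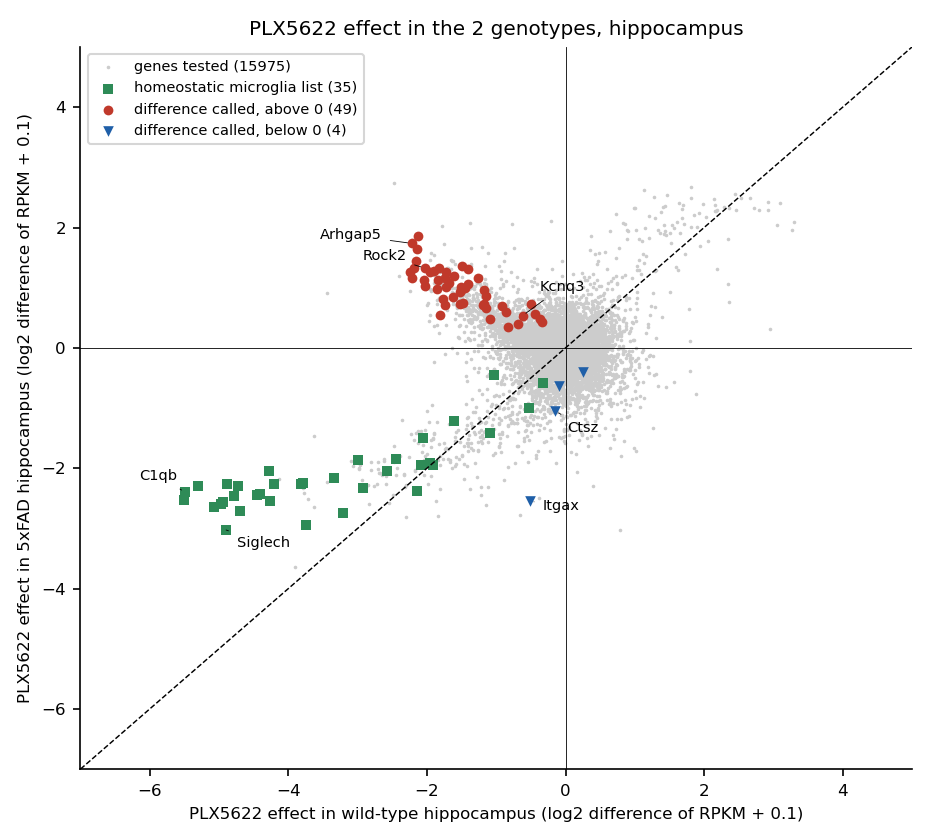
Each point is 1 of 15975 genes in hippocampus, with the PLX5622 effect in wild type on the horizontal axis and that in 5xFAD on the vertical axis, both as log2 differences of RPKM + 0.1; the dashed line marks equal effects. The 49 genes called above 0 (red) sit at upper left, above 0 in 5xFAD and below 0 in wild type, the 35 homeostatic microglia genes (green) lie mostly above the dashed line in the quadrant of lowered genes, and the 4 genes called below 0 (blue) lie under the line.

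The calls lay near the threshold, and their number depended on single libraries. All adjusted p values of the 53 genes lay between 0.018 and 0.049. No gene was called without 5xFAD replicate 4, without 5xFAD + PLX5622 replicate 2, without PLX5622 replicate 1 or without PLX5622 replicate 4, whereas 225 were called without 5xFAD + PLX5622 replicate 1 and 152 without PLX5622 replicate 3. Without 5xFAD + PLX5622 replicates 3 and 4, which carried liver transcripts, 14 genes were above 0 and 11 below 0, and with Xist as a covariate the counts were 67 and 6. In cortex the same difference gave 0 calls with limma on log2 values and 406 genes at an unadjusted p under 0.05 (2.54%), and 0 calls with voom on recovered reads. In thalamus it gave 1 call below 0, Itgax (0.00626% of the genes), and 436 genes at an unadjusted p under 0.05 (2.73%), and 0 calls with voom. With a pseudocount of 1 cortex gave 4 calls and thalamus 10, all below 0, where hippocampus gave 43 above 0 and 8 below 0. The difference between hippocampus and each other region was itself tested and gave 0 calls with limma for cortex (1032 genes at an unadjusted p under 0.05, 6.46%) and 0 for thalamus (1162 genes, 7.27%), and voom also gave 0 for each. No gene was therefore shown to be particular to hippocampus.

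Homeostatic microglia genes were lowered by PLX5622 in both genotypes and stood at a higher remaining level in treated 5xFAD. Of 35 genes of this list that were tested, 31 were called lower with PLX5622 in wild type (1.62% of all genes) and 29 in 5xFAD (1.92% of all genes), with median log2 effects of -3.79 and -2.26. The median difference was 1.55, beside 0.01 over all genes, and 30 of the 35 were above 0, against 50.9% of all genes. None of the 35 was called in the difference itself, against 0.332% of all genes. An unadjusted p under 0.05 was found for 18, all of them above 0, where 9.94% of all genes had one on that side. With a pseudocount of 1 the median was 0.21, with 23 of the 35 above 0. In bulk tissue, fewer microglia and less of a transcript per cell cannot be told apart. Within the subiculum of treated transgenic mice the study reports some surviving microglia. From these same samples it reports homeostatic genes higher in treated transgenic hippocampus than in other regions or wild type. It relates that higher level to the surviving subicular cells. The part of such cells in the values given here was not tested.

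Csf1r, which encodes the receptor that PLX5622 inhibits, shows the pattern. It was at 19.99, 18.65, 18.2 and 20.004 RPKM in the 4 Wild-type libraries and at 1.30, 0.44, 0.24 and 0.47 RPKM in the 4 PLX5622 libraries. In 5xFAD it was at 33.8, 41.6, 35.3 and 38.3 RPKM and in 5xFAD + PLX5622 at 3.23, 12.5, 7.09 and 4.66 RPKM. None of the 4 groups overlapped another. The log2 effect was -4.97 in wild type and -2.60 in 5xFAD, and the difference of 2.37 (SE 0.79) had an adjusted p of 0.14.

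Siglech, a sialic acid-binding lectin found on microglia and on few other brain cells, was at 3.61, 3.97, 3.31 and 4.23 RPKM in Wild-type and at 0.09, 0.05, 0 and 0 RPKM in PLX5622, where the values rested on 3, 1, 0 and 0 reads. In 5xFAD it was at 5.39, 6.93, 6.43 and 6.37 RPKM and in 5xFAD + PLX5622 at 0.20, 1.56, 0.92 and 0.64 RPKM. Every treated 5xFAD library was above every treated wild-type library. Its difference was 1.87 (SE 0.47, adjusted p = 0.055), but a pseudocount of 1 in place of 0.1 reduced it to 0.16. The chemokine receptor Cx3cr1 gave 2.43 (SE 0.67, adjusted p = 0.077), the selectin ligand Selplg 2.01 (SE 0.50, adjusted p = 0.053), the receptor Gpr34 2.32 (SE 0.58, adjusted p = 0.055) and the lysosomal membrane protein Laptm5 1.99 (SE 0.50, adjusted p = 0.057).

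A ratio that needs no pseudocount was formed by expressing each treated library as percent of the mean of the untreated libraries of its genotype. Over the 35 homeostatic genes the median percent left was 22.1% in 5xFAD and 5.64% in wild type. The library medians were 9.65%, 41.0%, 18.5% and 19.4% in 5xFAD + PLX5622 replicates 1 to 4 and 7.97%, 3.06%, 4.18% and 6.28% in PLX5622 replicates 1 to 4. These medians did not overlap, although replicate 1 of 5xFAD + PLX5622 lay close to replicate 1 of PLX5622. The 5xFAD median was 15.8% without replicate 2 and 24.9% without the libraries with liver transcripts. In cortex the medians were 7.04% in 5xFAD and 5.29% in wild type, and in thalamus 3.13% and 5.24%.

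**Figure D2:**
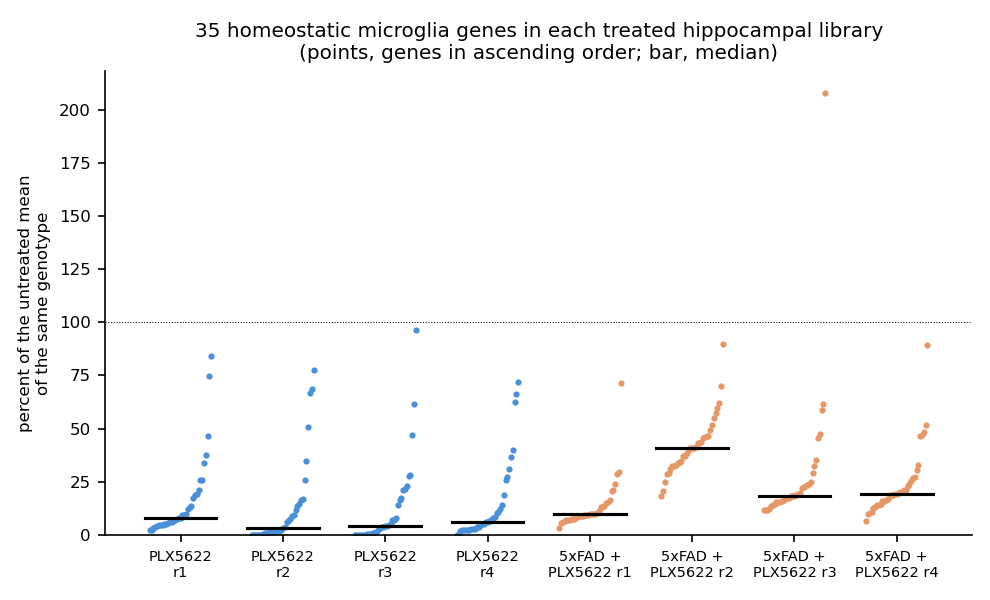
Points are the 35 homeostatic microglia genes in each of the 8 treated hippocampal libraries, in ascending order, as percent of the untreated mean of the same genotype (vertical axis), and bars are library medians. The 5xFAD + PLX5622 medians run from 9.65% to 41.0% and the PLX5622 medians from 3.06% to 7.97%; the point at 208% in 5xFAD + PLX5622 replicate 3 is Rnase4, a ribonuclease also made in liver.

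Gene by gene, 32 of the 35 had a higher mean percent left in 5xFAD, and for 16 of them all 4 treated 5xFAD libraries were above all 4 treated wild-type libraries (exact permutation test, two-sided p = 0.0286, the smallest that 4 against 4 allows, unadjusted). No member showed the reverse. The test held the untreated means fixed, so its p leaves out the spread of the untreated mice. Over 15959 genes the same non-overlap was found for 10.1% above and 5.5% below. The complement chain C1qa kept 23.9% ± 15.3 (SD, n = 4) in 5xFAD and 3.90% ± 3.33 in wild type, and the purinergic receptor P2ry13 15.4% ± 9.52 and 1.15% ± 1.65. P2ry12, the receptor through which microglia sense nucleotides, kept 17.9% ± 10.4 and 4.44% ± 1.36. Not all members followed. Tmem119, a membrane protein used to mark microglia, kept 12.5% ± 3.95 in 5xFAD and 7.06% ± 4.33 in wild type, with overlapping libraries. The transcription factor Sall1 kept 51.8% and 69.1%, and the phagocytic receptor Mertk 67.3% and 80.2%.

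The genes called below 0 were Itgax, Ctsz, Hexa and Serpine2, and the first 3 belong to the disease-associated list. All were called higher in 5xFAD than in wild type, where 0.782% of all genes were. PLX5622 lowered them in 5xFAD and left their wild-type values uncalled. These comparisons are parts of the difference that chose the genes, in the same libraries, and are not further evidence for it. Itgax, an integrin subunit of plaque-associated microglia (chr7:128129526-128150657, mm10), was at 2.63, 4.11, 2.20 and 4.49 RPKM in 5xFAD and at 0.15, 0.91, 0.55 and 0.52 RPKM in 5xFAD + PLX5622. It was at 0.06, 0.06, 0.11 and 0.11 RPKM in Wild-type and at 0.02, 0.03, 0 and 0.07 RPKM in PLX5622, which is between 0 and 5 reads a library. The 5xFAD libraries lay above those of every other group. The log2 effect of PLX5622 was -2.55 in 5xFAD and -0.51 in wild type, a difference of -2.03 (SE 0.48, adjusted p = 0.049). In cortex the difference was -2.59 and in thalamus -2.85. With so few wild-type reads the value depended on the pseudocount and was -1.26 at 0.01, no longer called.

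The start of Itgax is shown beside that of Siglech because they are microglial genes whose differences had opposite signs. The sequences are RefSeq promoters of build GRCm38.p6, plus strand, from 250 bases before to 50 bases after the annotated start, at chr7:128129300-128129599 and chr7:55767934-55768233. Capitals mark GGAAGT, a core bound by factors of the ETS family such as PU.1, or its reverse complement ACTTCC, which was searched for on both strands.
Itgax: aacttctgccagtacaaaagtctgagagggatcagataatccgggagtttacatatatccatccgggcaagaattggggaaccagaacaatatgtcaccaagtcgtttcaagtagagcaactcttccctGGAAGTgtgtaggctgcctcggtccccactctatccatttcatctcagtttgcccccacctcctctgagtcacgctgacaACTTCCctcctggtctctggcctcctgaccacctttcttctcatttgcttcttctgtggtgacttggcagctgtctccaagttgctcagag
Siglech: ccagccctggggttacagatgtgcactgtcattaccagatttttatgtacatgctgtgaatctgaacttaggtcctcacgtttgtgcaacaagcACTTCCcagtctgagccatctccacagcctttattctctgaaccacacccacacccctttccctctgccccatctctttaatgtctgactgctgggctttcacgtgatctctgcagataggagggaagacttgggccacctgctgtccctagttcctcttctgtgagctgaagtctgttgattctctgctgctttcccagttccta
The Itgax window held 2 matches and the Siglech window 1. The motif was present in 23.8% of the 32851 promoters in the table, and a match is a description of the letters only.

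Ctsz, the lysosomal peptidase cathepsin Z (chr2:174427494-174439039), was at 37.3, 48.5, 34.6 and 51.1 RPKM in 5xFAD and at 16.4, 25.4, 20.4 and 20.5 RPKM in 5xFAD + PLX5622. It was at 13.8, 17.3, 22.8 and 16.04 RPKM in Wild-type and at 14.3, 16.8, 16.1 and 14.9 RPKM in PLX5622. Treated 5xFAD thus overlapped Wild-type, while untreated 5xFAD lay above every other group. The difference was -0.89 (SE 0.21, adjusted p = 0.049), with -0.92 in cortex and -0.79 in thalamus.

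Hexa, the alpha subunit of lysosomal hexosaminidase (chr9:59539540-59565109), had group means of 20.5 ± 2.38 RPKM in Wild-type, 19.2 ± 1.39 in PLX5622, 33.7 ± 3.11 in 5xFAD and 21.7 ± 2.44 in 5xFAD + PLX5622 (SD, n = 4). Its difference was -0.54 (SE 0.13, adjusted p = 0.049). Serpine2, a secreted serine protease inhibitor of glia and neurons (chr1:79794317-79858665), had means of 53.3 ± 3.46, 63.6 ± 4.31, 75.4 ± 8.24 and 56.9 ± 2.38 RPKM in the same order. Its difference was -0.66 (SE 0.15, adjusted p = 0.048). Unlike the other 3 it was close to 0 elsewhere, at -0.19 in cortex and -0.03 in thalamus, and hippocampus minus cortex had an unadjusted p of 0.034.

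**Figure D3:**
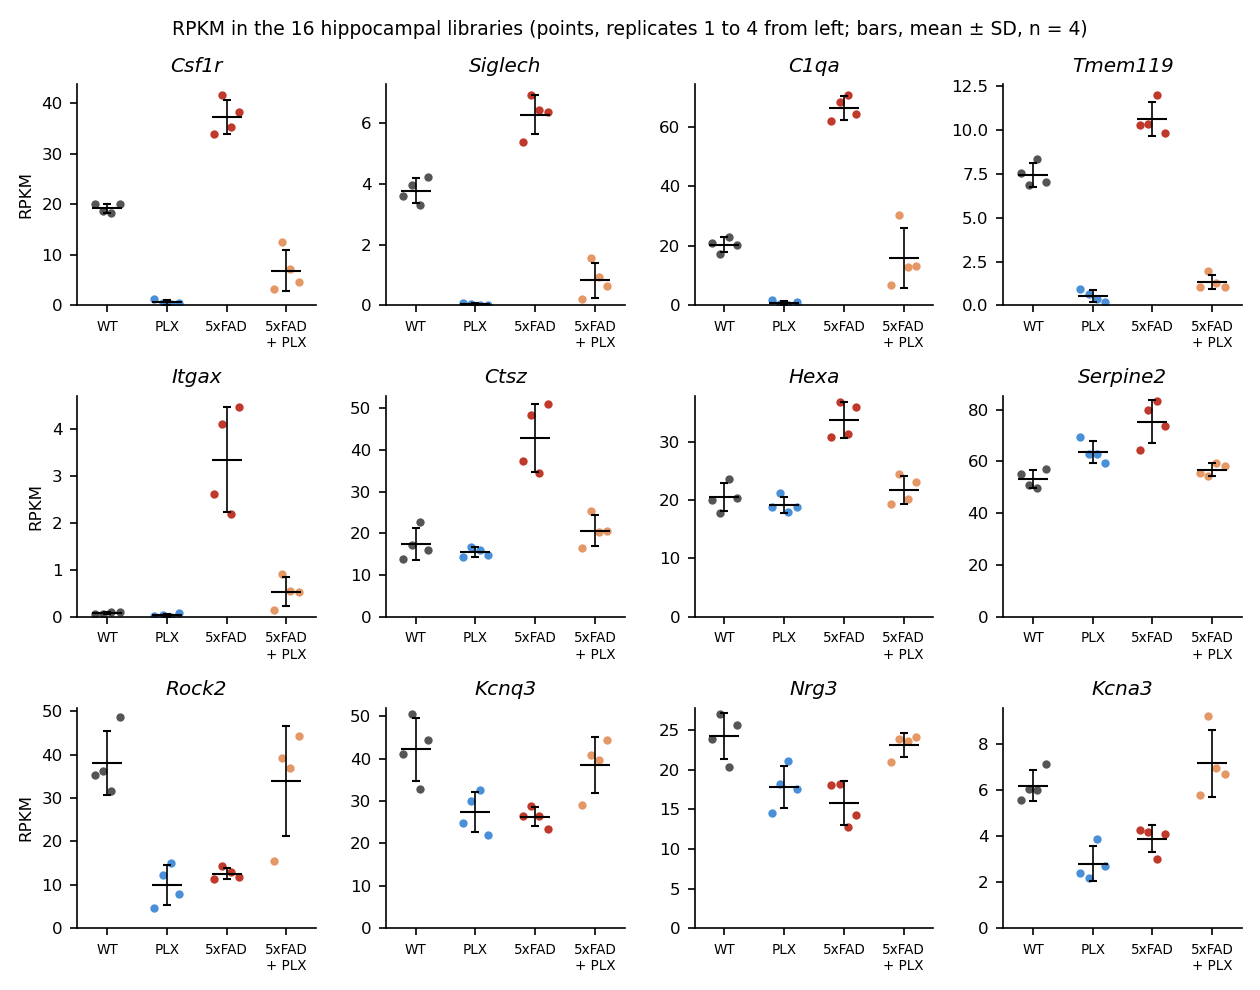
RPKM (vertical axes, from 0) of 12 genes in the 16 hippocampal libraries by group, with replicates 1 to 4 from left to right and bars for mean ± SD. The top row shows homeostatic microglia genes with a remaining level in 5xFAD + PLX5622 above that in PLX5622, the middle row the 4 genes called below 0, with 5xFAD highest, and the bottom row 4 genes called above 0, with lower means in PLX5622 and 5xFAD than in Wild-type and 5xFAD + PLX5622.

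Among 33 disease-associated genes tested, 27 were below 0, 3 were called lower (0.025% of all genes) and none higher. The median was -0.40, beside -0.52 in cortex and -0.67 in thalamus. The study picked several members, with Itgax, Ctsz and Hexa among them, from these data for rising in 5xFAD and falling with PLX5622. Those members are not independent evidence of the direction. Clec7a, a lectin receptor, was at 5.71 ± 1.54 RPKM in 5xFAD and 1.19 ± 0.99 in 5xFAD + PLX5622 (SD, n = 4), while Wild-type was at 0.18 ± 0.22 and PLX5622 at 0.08 ± 0.04. Its difference of -2.11 had an adjusted p of 0.19. Cst7, a cystatin, was at 24.1, 34.9, 14.6 and 25.6 RPKM in 5xFAD and at 2.29, 12.7, 6.27 and 10.3 RPKM in 5xFAD + PLX5622, all above the 0.45 RPKM that no library of the wild-type groups exceeded. The treated 5xFAD libraries were called above treated wild type by 5.07 on the log2 scale (adjusted p = 9.01e-07; 0.764% of all genes were called higher there), and the difference of -1.40 was not called (adjusted p = 0.47). Of the 6 above 0, Igf1, an insulin-like growth factor, was at 2.29 ± 0.97 RPKM in 5xFAD + PLX5622, 1.51 ± 0.66 in 5xFAD, 0.70 ± 0.36 in PLX5622 and 1.57 ± 0.30 in Wild-type. Its difference was 1.76 (SE 0.51, adjusted p = 0.087). Its highest level, 3.56 RPKM, was in 5xFAD + PLX5622 replicate 3, which carried liver transcripts. Without the libraries with liver transcripts the Igf1 difference was 1.41 (adjusted p = 0.17).

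Lysosomal genes gave 31 of 38 below 0, with 2 called lower (0.025% of all genes), Ctsz and Hexa, and a median of -0.19. Ctsz, Hexa, Ctsd and Grn are among the genes that the study picked from these data. The aspartyl protease Ctsd had a difference of -0.69 (adjusted p = 0.16) and the granulin precursor Grn -0.41 (adjusted p = 0.30). Ctss, a cathepsin that is also on the homeostatic list, went the other way with 2.97 (adjusted p = 0.14).

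Interferon and antigen presentation genes leaned below 0 with no call. Of 24 interferon response genes 22 were below 0, with a median of -0.39, and of 14 genes of MHC class I presentation 13 were below 0, with a median of -0.63. The same lists had medians of -0.74 and -0.49 in cortex and of -0.23 and -0.53 in thalamus. The interferon median was -0.74 without Wild-type replicate 3, -0.61 without 5xFAD replicate 4 and -0.26 without 5xFAD replicate 1, and the MHC class I median -0.37 without 5xFAD replicate 3. Usp18, which removes the interferon-induced modifier ISG15, was at 1.87, 1.12, 1.09 and 0.79 RPKM in 5xFAD and at 0.35, 0.33, 0.25 and 0.22 RPKM in 5xFAD + PLX5622. It was at 0.35, 0.26, 1.54 and 0.43 RPKM in Wild-type and at 0.49, 0.45, 0.68 and 0.60 RPKM in PLX5622, so the wild-type groups overlapped and the 5xFAD groups did not. The difference was -1.81 (SE 0.44, adjusted p = 0.051). The antiviral gene Oasl2 gave -1.28 (adjusted p = 0.16), the MHC class I gene H2-D1 -0.59 (adjusted p = 0.30) and the immunoproteasome subunit Psmb8 -0.95 (adjusted p = 0.32).

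Complement genes had values on both sides of 0, with a median of 0.54 over 17 genes and none called. The complement median was -0.02 without 5xFAD + PLX5622 replicate 3, 0.09 without Wild-type replicate 3, 0.30 without PLX5622 replicate 1, 0.33 without 5xFAD replicate 4, 0.85 without 5xFAD + PLX5622 replicate 1 and -0.29 without both libraries with liver transcripts. The microglial chains C1qa, C1qb and C1qc had differences of 2.62, 3.09 and 3.01 (adjusted p from 0.19 to 0.23). C4b, a complement component of astrocytes and oligodendrocytes, had group means of 6.91 ± 2.31 RPKM in Wild-type, 35.8 ± 12.7 in PLX5622, 27.0 ± 4.67 in 5xFAD and 61.1 ± 26.9 in 5xFAD + PLX5622 (SD, n = 4). PLX5622 raised it in wild type by 2.35 on the log2 scale (adjusted p = 2.03e-05), the effect in 5xFAD was 1.06 (adjusted p = 0.13), and the difference of -1.28 was not called (adjusted p = 0.22). C4b was highest in the libraries with liver transcripts, at 69.7 and 91.7 RPKM in 5xFAD + PLX5622 replicates 3 and 4. Without them its difference was -1.80 (adjusted p = 0.093).

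All 49 genes called above 0 had a positive PLX5622 effect in 5xFAD (0.34 to 1.85) and a negative one in wild type (-2.25 to -0.34). Of these effects, 33 were called in wild type, where 1.62% of all genes were lowered. In 5xFAD 4 were called, where 0.313% of all genes were raised. Both effects are parts of the difference that chose the genes and are not further evidence for it. The largest differences were 3.98 for Zfp942, a zinc finger protein, and 3.96 for Arhgap5, a GTPase-activating protein. Rad51ap2, a partner of a recombinase, followed with 3.79 and Esf1, a nucleolar protein, with 3.60. The kinase Rock2, which acts on the cytoskeleton, had 3.36 (SE 0.74, adjusted p = 0.043). Of the 49, 9 were Zfp genes and 8 were predicted genes with a Gm name. The share of such names over all genes tested was not counted. Whether the counting divided reads between near-identical copies of these genes was not tested.

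Rock2 was at 35.3, 36.3, 31.7 and 48.7 RPKM in Wild-type and at 4.66, 12.2, 15.1 and 7.90 RPKM in PLX5622. In 5xFAD it was at 11.3, 14.3, 12.97 and 11.8 RPKM and in 5xFAD + PLX5622 at 15.6, 39.2, 36.9 and 44.3 RPKM. Replicate 1 of 5xFAD + PLX5622 thus lay near the 5xFAD group and the other 3 within the Wild-type range, and this replicate was the lowest of its group for 39 of the 49 genes.

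Neuronal genes among the 49 included ion channels, a growth factor and a transcription factor. Kcnq3, a subunit of the M-type potassium channel that damps repetitive firing (chr15:65986374-66286636), was at 41.0, 50.6, 32.8 and 44.3 RPKM in Wild-type and at 24.8, 30.1, 32.6 and 22.1 RPKM in PLX5622. In 5xFAD it was at 26.4, 28.9, 26.5 and 23.4 RPKM and in 5xFAD + PLX5622 at 29.0, 40.8, 39.7 and 44.5 RPKM. The ranges of Wild-type and 5xFAD + PLX5622 overlapped, as did those of PLX5622 and 5xFAD. The difference was 1.16 (SE 0.24, adjusted p = 0.030), with -0.05 in cortex and -0.05 in thalamus.

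Nrg3, a neuregulin of excitatory neurons (chr14:38365102-39473235), was at 24.2 ± 2.89 RPKM in Wild-type, 17.8 ± 2.69 in PLX5622, 15.8 ± 2.76 in 5xFAD and 23.1 ± 1.49 in 5xFAD + PLX5622 (SD, n = 4). Its difference was 1.00 (SE 0.21, adjusted p = 0.035). The potassium channel Kcna3 (chr3:107036162-107038129) had means of 6.19 ± 0.66, 2.80 ± 0.75, 3.90 ± 0.59 and 7.16 ± 1.47 RPKM in the same order and a difference of 2.00 (SE 0.39, adjusted p = 0.024). The difference was 1.57 (SE 0.32, adjusted p = 0.032) for the transcription factor Etv1. Of 6 neuronal genes that the study itself named from these samples, 3 were called higher (0.307% of all genes), Kcnq3 and Nrg3 among them. All 6 were above 0, with a median of 0.63. They were picked from these libraries and are not independent evidence of the direction. Dlk2 and Dync1i1 had values of 0.49 and 0.30 (adjusted p = 0.19 and 0.22).

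Whole lists of neuronal genes moved less. Over all genes 50.9% were above 0, 0.307% were called higher and 9.94% had an unadjusted p under 0.05 on that side. Of 49 presynaptic genes 35 were above 0 with 2 called and a median of 0.15. Of 50 genes of glutamate receptors and the postsynaptic density 36 were above 0 with none called and a median of 0.13, although 15 had an unadjusted p under 0.05 on that side. The AMPA receptor subunit Gria2 gave 2.58 (adjusted p = 0.083). Of 50 potassium channel genes 34 were above 0 with 2 called and a median of 0.18. GABA neuron and receptor genes had a median of 0.51 over 31 genes with none called (0.14 once the trend on GC content, described next, was removed), and 42 nuclear genes of oxidative phosphorylation a median of 0.01 with none called. The presynaptic median was 0.07 without 5xFAD + PLX5622 replicate 1 and 0.09 without Wild-type replicate 2, the potassium channel median 0.12 without 5xFAD + PLX5622 replicate 1, and the GABA median 0.30 without PLX5622 replicate 1. Without the libraries with liver transcripts the presynaptic, postsynaptic and potassium channel medians were 0.29, 0.23 and 0.38. These were the highest over 32 settings, and the lowest were 0.01, 0.004 and 0.06.

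The genes called above 0 were AT-rich. GC content was taken from the longest annotated transcript of each gene and was available for 92.0% of the genes tested. It had a median of 39.1% over the 41 called genes with a value, against 49.9% over all, and 40 of the 41 lay below that all-gene median; the exception was Kcna3 at 60.3%. When all genes were ranked by GC content and divided into 10 equal classes, the lowest GC class had a median difference of 0.58 and held 33 of the calls, and 44.4% of its genes had an unadjusted p under 0.05. The highest GC class had a median of -0.06, and 6.05% of its genes passed. In cortex the lowest GC class had a median of 0.00 and in thalamus 0.06.

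The levels of these classes varied between libraries. The mean centred log2 level of the lowest GC class minus that of the highest lay between 0.23 and 0.30 in the 4 Wild-type libraries. It was -0.96, -0.05, -0.03 and -0.20 in PLX5622, -0.05, 0.09, 0.08 and -0.30 in 5xFAD, and -0.13, 0.17, -0.03 and 0.31 in 5xFAD + PLX5622. Wild-type stood above 11 of the 12 other libraries, the exception being 5xFAD + PLX5622 replicate 4, and PLX5622 replicate 1 was far below the rest. The treated and untreated 5xFAD libraries overlapped, with replicates 1 and 3 of 5xFAD + PLX5622 inside the 5xFAD range.

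**Figure D4:**
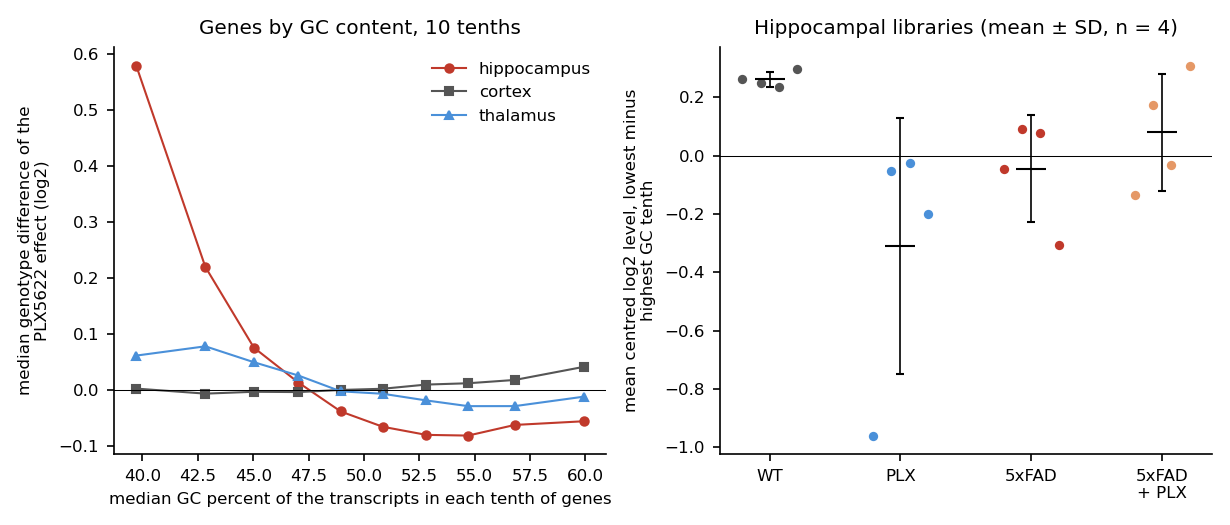
Left, median genotype difference (log2, vertical axis) of genes in 10 equal classes of transcript GC content (horizontal axis, median percent GC) in 3 regions: hippocampus falls from 0.58 in the lowest GC class to -0.06 in the highest, while cortex and thalamus stay between -0.03 and 0.08. Right, centred log2 level of the lowest minus the highest GC class in each hippocampal library with mean ± SD (n = 4); the 4 Wild-type libraries lie between 0.23 and 0.30.

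When the trend on GC content was removed from each library, 156 genes were above 0 and 62 below 0 among 14694, and 38 of the 45 earlier calls that have a GC value remained. Rock2 then gave 2.89 (adjusted p = 0.009), Kcnq3 0.97 (adjusted p = 0.009), and Nrg3 1.07 (adjusted p = 0.012). Of the 41 genes called above 0 that have a GC value, 39 stayed above 0. Of the lower genes Itgax gave -1.93 (adjusted p = 0.028), Ctsz -0.80 (adjusted p = 0.024), Serpine2 -0.75 (adjusted p = 0.031) and Hexa -0.44 (adjusted p = 0.052). In this setting 5 homeostatic microglia genes were called above 0: Laptm5, Cx3cr1, Selplg, Itgam and Siglech, with values from 1.77 to 2.51, and the list's median was 1.22. Gpr34 gave 1.27 (adjusted p = 0.38), Igf1 0.83 (adjusted p = 0.20) and the sterol desaturase Sc5d 0.04 (adjusted p = 0.94). The setting was chosen after the data had been seen.

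Other glia and metabolic genes had smaller values. Of 22 homeostatic astrocyte genes 20 were below 0 with a median of -0.29 and none called. The gap junction protein Gja1 gave -0.43 (adjusted p = 0.21) and glutamine synthetase Glul -0.31 (adjusted p = 0.16). Of 22 myelin genes 17 were below 0 with a median of -0.32 and none called, but the median was -0.01 without 5xFAD + PLX5622 replicate 1 and -0.69 without the libraries with liver transcripts. Of 27 genes of sterol and fatty acid synthesis 22 were above 0 with a median of 0.31 and none called. On that side 11 had an unadjusted p under 0.05, against 9.94% of all genes. The sterol median was 0.18 without 5xFAD replicate 3 and 0.48 without the libraries with liver transcripts. The sterol desaturase Sc5d was at 23.3 ± 1.60 RPKM in Wild-type, 23.1 ± 2.62 in PLX5622, 23.9 ± 2.56 in 5xFAD and 30.3 ± 2.33 in 5xFAD + PLX5622 (SD, n = 4), with a difference of 0.36 (SE 0.10, adjusted p = 0.077).

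Lists that mark other tissue or neighbouring regions had values on both sides of 0. Thalamic neuron genes had a median of -1.23, with 13 of 15 below 0 and none called, and the median was -1.95 without the libraries with liver transcripts. Striatal neuron genes had a median of -0.88, with 15 of 15 below 0 and none called. That median was -0.14 without 5xFAD replicate 3, -0.37 without PLX5622 replicate 2, -0.44 without 5xFAD replicate 4, -1.32 without Wild-type replicate 2 and -1.49 without 5xFAD replicate 1 or replicate 2. The summed thalamic and striatal levels ranged from 95.3 to 329 RPKM and from 74.7 to 1321 RPKM over the 16 libraries. Cortical neuron genes went the other way, with a median of 0.51, 17 of 20 above 0 and 1 called (0.307% of all genes), Etv1. Their summed level ranged from 284 RPKM in PLX5622 replicate 2 to 660 RPKM in 5xFAD + PLX5622 replicate 1, and the median was 0.23 and 0.25 without these libraries and 0.80 without those with liver transcripts. The part of this list in the values of the neuronal genes called above 0 was not tested. Liver genes had a median of 0.05, with PLX5622 effects of 2.27 in 5xFAD and 1.86 in wild type. The liver median moved from -1.20 without 5xFAD + PLX5622 replicate 3 to 1.20 without replicate 1 of that group, and was -2.77 without replicates 3 and 4.

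The transgene-linked genes were not called in the difference. App was at 478 ± 34.2 RPKM in Wild-type, 482 ± 30.8 in PLX5622, 774 ± 194 in 5xFAD and 1011 ± 278 in 5xFAD + PLX5622 (SD, n = 4), and its difference was 0.36 (SE 0.19, adjusted p = 0.38). Thy1, whose promoter drives the transgenes, gave 0.55 (adjusted p = 0.35). The deposited levels do not tell human transgene reads apart from reads of mouse origin.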

How the data were processed

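RNA was measured by 50-base single-end sequencing of 48 libraries, 4 in each of 12 groups of genotype, treatment and region. The labels do not say whether libraries of different regions came from the same mice. Per the study's methods, reads were aligned to mm10 with STAR and counted per gene with featureCounts, low-count genes were removed, and limma was used with library scaling factors. The authors deposited RPKM values for 16014 genes, and whether those factors entered them is not given in the sources used here. The labels and the methods name different library kits.

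Log2(RPKM + 0.1) was fitted for all 12 groups with limma 3.58.1 (trend, R 4.3.3) over 15975 genes at 0.2 RPKM or more in at least 4 libraries, and p-values were adjusted by Benjamini-Hochberg within each contrast at 0.05. The script was tested on simulated data. Whole reads were recovered from the RPKM steps for 16014 of 16014 genes, within 0.05 reads, for the voom alternative. The limma p-values rest on a spread per gene estimated from all 48 libraries, those of cortex and thalamus included. In the main fit, libraries of different regions were treated as independent. Percent left was compared by exact permutation tests of the treated libraries, unadjusted, with the untreated means held fixed. Alternatives were pseudocounts, filters, scaling, blocks, covariates, leaving out each library and, chosen after the data had been seen, removal of a GC trend and a fit of genes with a GC value. Members and gene lists were chosen with earlier results of these data known. Named genes were those the study named for hippocampal RNA, up to 15 called genes in each direction by size, up to 4 members of each list with the smallest p, and liver genes. P2ry12, P2ry13, Tmem119, Sall1, Mertk, Itgam and Rnase4 were chosen after their values were seen. Same-numbered libraries of different hippocampal groups were not paired: their deviations correlated between -0.45 and 0.33 (median -0.03, 24 pairs). Results of some genes under the rule are not reported here.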

Additional observations from a re-analysis of the deposited data

Results flagged for a closer look

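In 122 groups of 4 libraries examined, 11 held a library whose gap to its nearest neighbour exceeded Dixon's 95% critical share of the group's range, and chance gives about 1 in 20 such groups. Clec7a was highest in Wild-type replicate 3 at 0.503 RPKM, as was Usp18 at 1.54 RPKM. C4b was lowest in Wild-type replicate 2 at 3.48 RPKM and Kcna3 lowest in 5xFAD replicate 3 at 3.02 RPKM. In 5xFAD + PLX5622, Nrg3 was lowest in replicate 1 at 20.9 RPKM. Alb was highest among Wild-type libraries in replicate 2 at 3.63 RPKM. The summed level of striatal neuron genes was highest in Wild-type replicate 2 at 414 RPKM and in PLX5622 replicate 2 at 385 RPKM. Ttr was highest in Wild-type replicate 3 at 4126 RPKM, in PLX5622 replicate 2 at 3749 RPKM and in 5xFAD + PLX5622 replicate 3 at 1376 RPKM.

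The PLX5622 effect differed between the genotypes by the interaction test in limma for 49 genes above 0 and 4 below 0. The log2 differences below 0 were -2.03 for Itgax, -0.89 for Ctsz, -0.54 for Hexa and -0.66 for Serpine2. Among those above 0 were Rock2 at 3.36, Arhgap5 at 3.96, Rad51ap2 at 3.79, Kcna3 at 2.00, Kcnq3 at 1.16, Nrg3 at 1.00 and Etv1 at 1.57.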

How the results depend on the processing

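The 49 genes called above 0 stayed above 0 wherever tested, at an unadjusted p under 0.05, except with the GC trend removed. There 39 of 41 were above 0. The settings refit libraries that chose these genes, so the kept sign is not independent evidence of the direction. The number of genes called above 0 moved widely. It was 259 with hippocampal libraries alone, 509 with these and a dentate gyrus score, 26 with robust variances, 18 with voom, 156 with the GC trend removed and 15 with only the genes that have a GC value (the last 2 chosen after seeing the data). The 4 genes below 0 became 8 with a pseudocount of 1, 1 with robust variances, 25 with hippocampal libraries alone and a dentate gyrus score, 62 with the GC trend removed and 0 with only the genes that have a GC value. With the replicate number as a block, 23 genes were above 0 and 0 below 0, and 22 of those 23 were among the 53; the numbers do not pair the mice. Without the libraries with liver transcripts 14 were above 0 and 11 below 0. Leaving out 1 library gave 0 to 218 genes above 0 and 0 to 20 below 0. Voom moved the median over all genes tested to -0.13. The causes were not tested.

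PLX5622 in 5xFAD called 234 genes with a pseudocount of 0.01, 196 at a mean RPKM of at least 1 and 189 with hippocampal libraries alone, and 230 to 408 without 1 library. In wild type it called 137 at a mean RPKM of at least 1, 434 with hippocampal libraries alone, 886 with these and a dentate gyrus score, and 187 to 331 without 1 library. 5xFAD against wild type called 70 with a pseudocount of 0.01, 257 with 1, 80 at a mean RPKM of at least 1, 54 with hippocampal libraries alone, 325 with voom and 77 to 164 without 1 library. The treated groups gave 84 with a pseudocount of 1, 70 at a mean RPKM of at least 1, 68 with voom, 234 with hippocampal libraries alone and a dentate gyrus score, and 86 to 246 without 1 library. Hippocampus minus cortex gave 0 to 0 and hippocampus minus thalamus 0 to 11 without 1 library, and the latter 66 with the GC trend removed. The median percent left was 15.8% to 26.1% in 5xFAD and 4.72% to 6.40% in wild type without 1 library. The sign reversed for Rnf217 (-0.0019) with the GC trend removed and for Ccl6 (-1.12) with a pseudocount of 1.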
